A study of Homo sapiens with 4 samples.

Results

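The interferon-stimulated genes examined here are 49 symbols, chosen by name, that encode antiviral effectors, nucleic acid sensors, transcription factors of the interferon response and the ligand IFNB1. All 49 were found in the deposited files by symbol, on 48 loci, because IFITM1 and IFITM2 share a joined locus. IRF9 is joined with RNF31, which is not one of the 49. The members stand among 22679 named genes. Of the 48 loci 35 reached 1 FPKM in at least 1 library, as 12183 of all named genes did. FPKM stands for fragments scaled to transcript length and to the library's mapped total. The joined values cannot be read as those of a single gene.

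Poly(A) RNA of IMR90 cells, a line of human lung fibroblasts, was sequenced in 4 libraries, 1 for each group, all at passage 16. The OIS library (oncogene-induced senescence) came from cells carrying ER:RasV12, a tamoxifen-inducible form of H-RasV12 on a retroviral construct, after 8 days with 10 nM tamoxifen. The H3.3cs1 late and H3.3cs1 early libraries came from cells infected with a retrovirus for Flag-tagged cleaved histone H3.3, harvested at day 13 and day 3 after infection. The growing library came from cells with the empty retroviral vector pBabe, kept under normal conditions for 13 days. Every group carried a retroviral construct, while a vector control harvested at day 3 was not analysed here, so that in the comparison of H3.3cs1 early with growing the cleaved histone, the time since infection and the time in culture cannot be told apart. OIS likewise differed from growing in construct, drug and time. With 1 library per group there is no replicate, no error and no test, and each difference describes these libraries.

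Type I interferons bind the receptor subunits IFNAR1 and IFNAR2, and the kinases JAK1 and TYK2 then activate STAT2, which acts with IRF9 in a complex that binds the interferon-stimulated response element in the promoters of the induced genes. The ligands are made when RNA sensors such as DDX58 (RIG-I) and IFIH1 (MDA5), or the DNA sensor MB21D1 (cGAS) with its partner TMEM173 (STING), detect nucleic acid in the cytosol, and fibroblasts are a classical source of interferon beta. In senescent cells this DNA-sensing route is known to feed the secretory programme.

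The response element was searched for as GAAANNGAAA, on both strands, in RefSeq promoter windows of GRCh38.p14 that run from 250 bases before to 50 bases after a transcript start. The submitters' processing notes name hg19 and the deposited files hold no coordinates, so positions here are those of the RefSeq windows. Of the 49 symbols 39 had a window, DDX58 under its present name RIGI, and 10 did not (IFIT2, IFITM2, MX2, OAS2, OASL, IRF7, DHX58, USP18, TRIM22 and GBP2). The motif lay in 30 of the 51 member windows (58.8%), against 1255 of 35116 windows of all genes (3.57%). Counted by gene, 26 of 39 members (66.7%) and 4.38% of all genes held it in a window. A match is a run of letters and not a shown binding site. The stretches below come from members past 2-fold in a comparison, since these carry the differences described here. IFIT3, IFI44 and PARP14 also passed 2-fold and held the motif, but their stretches are not printed. The motif is in capitals, and stretches read 5′ to 3′ on the strand of the gene, so that a motif on the other strand appears as TTTC blocks. For a gene with several starts the motif nearest before a start is shown, and those of EIF2AK2 and DTX3L span the start of the gene.
IFIT1 at chr10:89392497-89392539, plus strand: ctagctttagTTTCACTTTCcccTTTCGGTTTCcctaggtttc
IFI6 at chr1:27672266-27672317, minus strand: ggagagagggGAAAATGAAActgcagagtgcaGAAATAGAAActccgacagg
IFI27 at chr14:94110618-94110660, plus strand: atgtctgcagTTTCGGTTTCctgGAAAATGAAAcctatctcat
MX1 at chr21:41431844-41431873, plus strand: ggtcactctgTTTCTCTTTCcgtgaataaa
ISG15 at chr1:1013374-1013409, plus strand: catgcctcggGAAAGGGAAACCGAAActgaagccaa
EIF2AK2 at chr2:37156967-37156996, minus strand: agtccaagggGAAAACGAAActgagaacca
SAMD9 at chr7:93118096-93118125, minus strand: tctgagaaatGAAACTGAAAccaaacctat
PARP9 and DTX3L at chr3:122564322-122564351, minus strand: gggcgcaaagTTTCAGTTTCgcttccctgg
ISG20 at chr15:88638937-88638966, plus strand: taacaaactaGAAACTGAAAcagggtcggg
GBP1 at chr1:89065316-89065345, minus strand: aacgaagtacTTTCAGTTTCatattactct
OAS3 at chr12:112938452-112938473, plus strand: agccgggcggGAAAACGAAAcc

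IFIT1 and IFI27 each held a pair of motifs a few bases apart, and in ISG15 copies overlapped in a single run. PARP9 and DTX3L, which lie on opposite strands, shared 1 motif, which spans the DTX3L start and lies before a start of PARP9. The library kit does not mark strand, so fragments from any stretch that both genes' transcripts cover cannot be told apart. For IFIT1, whose difference between the H3.3cs1 late and early libraries was the largest among members, the whole stretch before the start is given as context.
IFIT1 upstream at chr10:89392373-89392622, plus strand: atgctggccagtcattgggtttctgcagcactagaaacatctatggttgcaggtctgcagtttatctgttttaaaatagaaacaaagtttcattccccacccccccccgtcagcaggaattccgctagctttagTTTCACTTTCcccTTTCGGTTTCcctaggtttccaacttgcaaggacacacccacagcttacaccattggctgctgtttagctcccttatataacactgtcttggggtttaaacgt

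The header line of each deposited file is out of step with its record by 1 library: the values recorded as growing are headed as senescent, those recorded as OIS as H3.3cs1 early, those recorded as H3.3cs1 early as late, and those recorded as H3.3cs1 late have no heading. Each file was read as the sample it was recorded for. HRAS matched the recorded label of the OIS library, at 3153 FPKM in OIS against 47.4 in growing, and at 41.9 in H3.3cs1 late and 49.8 in H3.3cs1 early, and which of the other 3 libraries is which rests on the record. The 10 fibroblast markers all stood at 12.5 FPKM or more in each library, although their levels varied. Against growing, 6 of them, among them COL1A1 and THY1, were lower in OIS. In H3.3cs1 early all 10 stood below growing, 2 of them (COL1A1 and DCN) past 2-fold, and LUM was higher in H3.3cs1 late. The 10 summed to 5033 FPKM in OIS, 11472 in H3.3cs1 late and 6201 in H3.3cs1 early, against 10849 in growing. Against H3.3cs1 early, 5 of them (COL1A1, COL1A2, COL3A1, LUM and PDGFRB) were higher in H3.3cs1 late. The part of these shifts in the values below was not tested. Of 12 leukocyte markers 11 stayed below 1 FPKM in every library, PTPRC at 0.0396 or less, and LAPTM5 reached 2.97 FPKM in OIS. The 3 plasmacytoid dendritic cell markers were listed at 0 throughout, and the 7 epithelial markers summed to between 0.172 and 0.512 FPKM per library. The spacing of the lowest FPKM values put the depth of OIS at about 82.2%, of H3.3cs1 late at 78% and of H3.3cs1 early at 95.9% of growing, and the number of fragments behind a value is not known. Differences were taken on the log2(FPKM + 1) scale, where low values show less than their plain ratio, and "rose", "fell", "higher" and "lower" stand for at least 2-fold on it. In bulk RNA, fewer cells expressing a gene and less of its RNA per cell cannot be told apart. Where a gene is listed at 0 no fold was computed, since a 0 may be an estimate that failed.

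At day 3 after infection with cleaved H3.3, 12 of the 48 interferon-stimulated loci were at least 2-fold higher than in growing cells and 0 were lower. The rises covered antiviral effectors (IFIT1, IFIT2, MX1, IFI6), the ISG15 conjugation system (ISG15, UBE2L6), the kinase EIF2AK2 and the nuclear proteins PARP9 and DTX3L. Among all 12183 compared genes 1.40% were higher by this rule and 3.96% lower, and over all 22679 named genes, a base that like the 48 loci has no filter, 0.754% were higher and 2.13% lower. The median difference was 0.38 over the 48 loci and 0.69 over the 35 that reached 1 FPKM, beside a median of -0.03 over all compared genes. Some members reached 1 FPKM through the day 3 library alone (HERC6, IFIH1, IFIT1 and MX1) and so could not be lower there. Giving every library an equal total over its named genes moved the median of all compared genes in this comparison to 0.19. Of them 2.59% were then higher and 2.77% lower. The same scaling gave 16 higher members, adding IFIH1, IFIT3, PARP14 and the joined IRF9 and RNF31 locus. With it 36 members and 12224 genes passed the filter. Of the loci below 1 FPKM before scaling, DHX58 came nearest to it, at 0.872 FPKM in H3.3cs1 early. The median of the 36 members lay 0.69 above that of all compared genes.

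The IFIT family, which encodes tetratricopeptide proteins that bind foreign RNA and block its translation, had its highest values at day 3 in all 4 genes. IFIT1 stood at 0.201 FPKM in OIS, 0.354 in H3.3cs1 late and 4.67 in H3.3cs1 early, against 0.703 in growing. It rose 3.33-fold at day 3, and the plain FPKM ratio to growing was 6.65. IFIT2, at 0.546 FPKM in OIS, 1.07 in H3.3cs1 late and 4.28 in H3.3cs1 early against 0.740 in growing, rose 3.03-fold. The family's largest level belonged to IFIT5, at 2.88 FPKM in OIS, 3.88 in H3.3cs1 late and 7.29 in H3.3cs1 early against 5.39 in growing. IFIT3 stood at 1.67, 1.20 and 5.01 FPKM in OIS, H3.3cs1 late and H3.3cs1 early, against 2.32 in growing. Neither IFIT3 (a difference of 0.86 at day 3) nor IFIT5 (0.38) passed 2-fold against growing.

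Among the GTPases, MX1, a dynamin-like protein that blocks viral nucleocapsids, rose at day 3 while the guanylate-binding proteins did not. MX1 stood at 0.222 FPKM in OIS, 0.390 in H3.3cs1 late and 2.79 in H3.3cs1 early, against 0.158 in growing. Its difference at day 3 was 3.28-fold, and the plain ratio was 17.7. GBP1 was at 10.3 FPKM in H3.3cs1 early and 10.8 in growing. GBP2 was at 1.80 FPKM in H3.3cs1 early and 1.04 in growing. MX2, the neighbour of MX1 on chromosome 21, reached no more than 0.329 FPKM in any library, its value at day 3.

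In the ISG15 system, ISG15, a ubiquitin-like modifier, and UBE2L6, the enzyme that conjugates it, rose at day 3, while the HERC genes and the protease did not pass 2-fold. ISG15 stood at 65.6 FPKM in OIS, 37.2 in H3.3cs1 late and 63.7 in H3.3cs1 early, against 25.9 in growing, a rise of 2.41-fold at day 3. UBE2L6 stood at 28.1 FPKM in OIS, 10.7 in H3.3cs1 late and 28.2 in H3.3cs1 early, against 13.1 in growing, a rise of 2.07-fold at day 3. For both genes OIS and H3.3cs1 early were close to each other and above the other libraries. USP18, which removes ISG15 and restrains receptor signalling, was at 4.18 FPKM in OIS, 1.55 in H3.3cs1 late and 6.42 in H3.3cs1 early, against 3.61 in growing. HERC6, which attaches ISG15 in the mouse, was at 1.16 FPKM in H3.3cs1 early and 0.210 in growing, and HERC5, the main ISG15 ligase in human cells, stayed at 0.313 FPKM or less, with its highest value in OIS.

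Of the RNA sensors and the kinase EIF2AK2 (PKR), which halts translation when it binds double-stranded RNA, EIF2AK2 alone passed 2-fold at day 3, and narrowly. EIF2AK2 stood at 14.2 FPKM in OIS, 4.60 in H3.3cs1 late and 15.2 in H3.3cs1 early, against 7.08 in growing, a rise of 2.01-fold at day 3. IFIH1 lay just under the threshold (1.98-fold), at 1.49 FPKM in H3.3cs1 early and 0.255 in growing. DDX58 stood at 5.57 FPKM in OIS, 6.36 in H3.3cs1 late and 6.28 in H3.3cs1 early, against 4.45 in growing. OIS and both H3.3cs1 libraries lay close together. DHX58, a regulator of both sensors, peaked at 0.872 FPKM at day 3.

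PARP9 and DTX3L, which form a complex of an ADP-ribosyltransferase family member and a ubiquitin ligase, rose together at day 3. PARP9 stood at 0.591 FPKM in OIS, 1.84 in H3.3cs1 late and 6.43 in H3.3cs1 early, against 1.93 in growing, a rise of 2.54-fold at day 3. DTX3L stood at 1.66 FPKM in OIS, 1.67 in H3.3cs1 late and 7.45 in H3.3cs1 early, against 3.16 in growing, a rise of 2.03-fold at day 3. H3.3cs1 early stood above the other 3 libraries for both, and neither passed 2-fold in OIS against growing. PARP14, another ADP-ribosyltransferase, stood just under the threshold at day 3 (1.94-fold), at 3.62 FPKM in OIS, 1.69 in H3.3cs1 late and 5.76 in H3.3cs1 early, against 2.49 in growing.

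SAMD9, a growth-restraining antiviral factor, rose 3.14-fold at day 3, at 1.70 FPKM in OIS, 0.241 in H3.3cs1 late and 3.67 in H3.3cs1 early, against 0.490 in growing. Its paralogue and neighbour on chromosome 7, SAMD9L, was at 2.62 FPKM in H3.3cs1 early and 2.19 in growing and did not pass 2-fold in any comparison. The sources used here do not give how fragments from similar copies were divided.

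Other members that lie next to each other in the genome, with no protein-coding gene between them in RefSeq, were compared as well. On chromosome 10 the neighbours of IFIT1 and IFIT2, which rose, are IFIT5 and IFIT3, which did not pass 2-fold. On chromosome 12 OAS3 lies between OAS1 and OAS2, and none of the 3 passed 2-fold at day 3. OAS1 and OAS2 stayed below 1 FPKM in every library, with their highest values of 0.302 and 0.294 FPKM in H3.3cs1 early.

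IFI6, a mitochondrial and endoplasmic reticulum protein that counters apoptosis and some viruses, stood at 31.8 FPKM in OIS, 21.5 in H3.3cs1 late and 52.1 in H3.3cs1 early, against 16.4 in growing, a rise of 3.05-fold at day 3. IFI35, which binds the factor NMI, stood at 1.72 FPKM in OIS, 1.03 in H3.3cs1 late and 6.49 in H3.3cs1 early, against 2.13 in growing, a rise of 2.40-fold at day 3. Here H3.3cs1 early stood alone above the other libraries. IFI27 was listed at 0 in growing and at 1.39 FPKM in OIS, 1.37 in H3.3cs1 late and 1.67 in H3.3cs1 early, so it counts as higher in each of these without a fold.

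**Figure D1:**
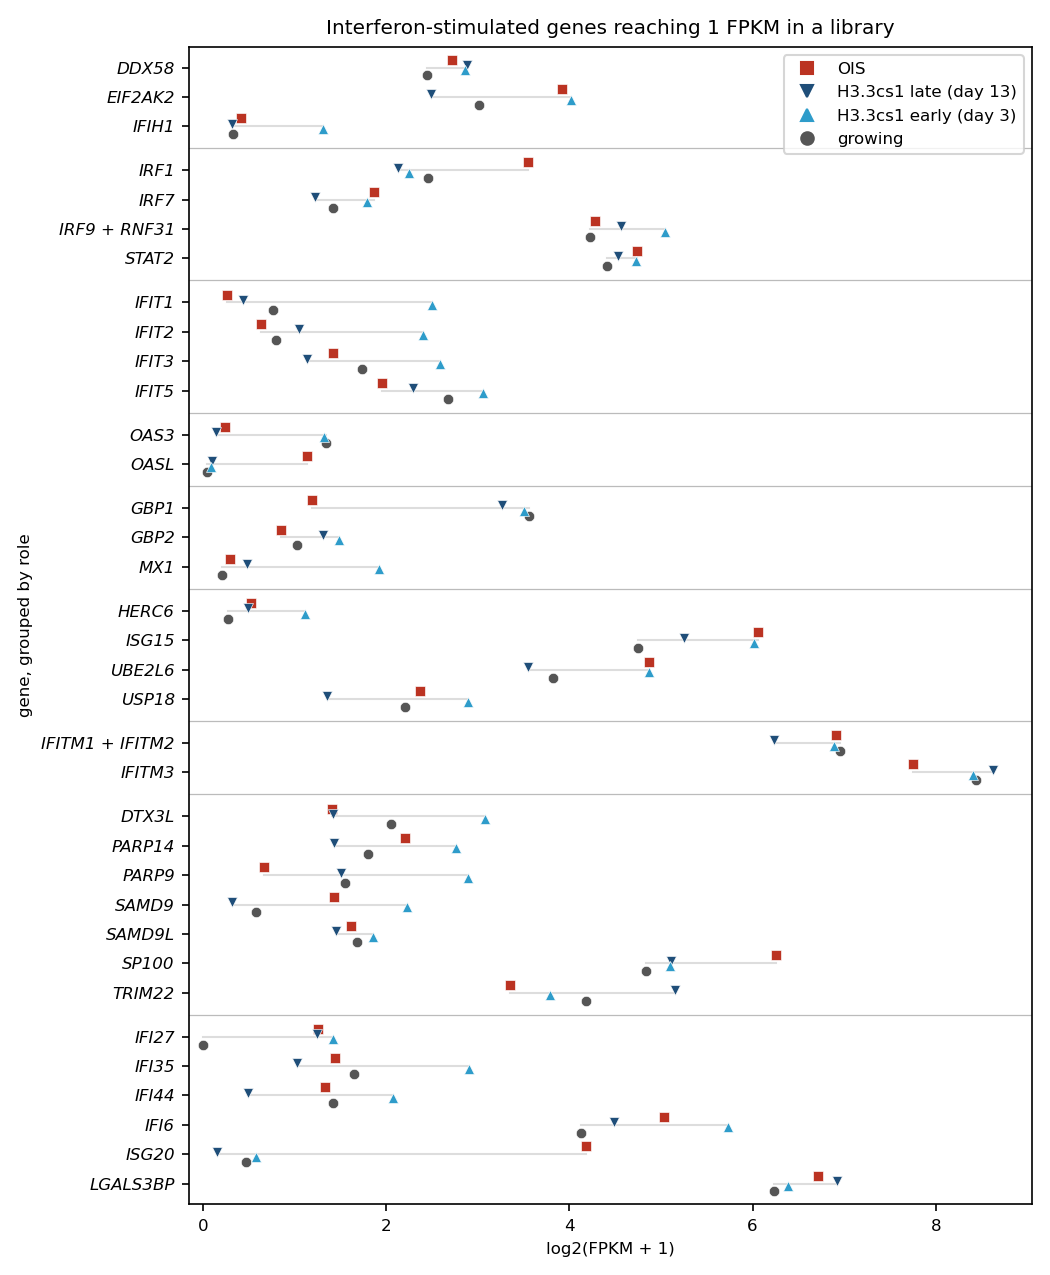
Level of each of the 35 interferon-stimulated loci that reached 1 FPKM in a library, as log2(FPKM + 1) on the horizontal axis, with 1 point per library and the genes grouped by role down the page. The IFIT genes, MX1, PARP9, DTX3L, SAMD9 and IFI35 have their H3.3cs1 early point to the right of the other 3, while ISG20, SP100, IRF1 and OASL have their OIS point there.

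Of the transcription factors none passed 2-fold at day 3. STAT2 stood at 25.7 FPKM in OIS, 22.1 in H3.3cs1 late and 25.6 in H3.3cs1 early, against 20.2 in growing. The joined IRF9 and RNF31 locus stood at 18.4 FPKM in OIS, 22.7 in H3.3cs1 late and 32.0 in H3.3cs1 early, against 17.7 in growing, which is 1.77-fold at day 3. IRF7, which amplifies interferon production, was at 2.46 FPKM in H3.3cs1 early and 1.67 in growing. IRF1 was at 3.75 FPKM in H3.3cs1 early and 4.48 in growing. The ligand IFNB1 was listed at 0 in all 4 libraries.

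The 13 loci that stayed below 1 FPKM in every library could not pass 2-fold on this scale. They included several of the genes best known for strong induction by interferon, such as RSAD2 (viperin), CMPK2, OAS1, OAS2, IFI44L, BST2 (tetherin) and XAF1. Leaving out IFNB1, 11 of the other 12 had their highest value in H3.3cs1 early, the exception being HERC5, whereas that library held the highest value for 22.6% of all 5548 genes that were below 1 FPKM in every library and above 0 in at least 1. BST2 was at 0.688 FPKM in H3.3cs1 early and 0.0407 in growing. XAF1 was at 0.346 FPKM in H3.3cs1 early and 0.0323 in growing. RSAD2 was at 0.211 FPKM in H3.3cs1 early and listed at 0 in growing. Among the 35 loci above the filter, 4 of which reached 1 FPKM in that library alone and so had to be highest there, H3.3cs1 early held the highest value for 21 and the lowest for 0, while over all compared genes it held the highest for 18.5% and the lowest for 20%.

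At day 13 of cleaved H3.3 many of the genes that had been high at day 3 were lower, among them IFIT1, MX1, SAMD9 and EIF2AK2. Against H3.3cs1 early, 15 of the 48 loci were at least 2-fold lower in H3.3cs1 late and 1 was higher. Among all compared genes 3.40% were lower by this rule and 5.47% higher, and over all named genes without a filter 1.83% were lower and 2.94% higher. The median difference was -0.43 over the 48 loci and -0.76 over the 35 that reached 1 FPKM, against -0.04 over all compared genes. Among the 35, HERC6, IFIH1, IFIT1 and MX1 reached 1 FPKM through the day 3 library alone and so could not be higher at day 13. With equal totals the median of all compared genes was -0.26 and that of the 36 members that then reached 1 FPKM was -0.945. Of all compared genes 6.58% were lower and 3.76% higher.

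Of the 12 loci past 2-fold at day 3 against growing, 10 were lower at day 13 than at day 3. Both comparisons use the H3.3cs1 early library, so these counts are not independent. IFIT1 fell 4.19-fold, SAMD9 3.76-fold, IFI35 3.69-fold and DTX3L 3.16-fold, which were the largest falls. EIF2AK2 fell 2.90-fold, MX1 2.73-fold, PARP9 2.61-fold, IFIT2 2.55-fold, UBE2L6 2.51-fold and IFI6 2.36-fold. ISG15 (a difference of -0.76) and IFI27 (-0.17) were the other members of that group and did not pass 2-fold.

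A further 5 loci were lower at day 13 than at day 3 without having passed 2-fold at day 3 against growing. These were IFI44 (2.99-fold), USP18 (2.91-fold), IFIT3 (2.74-fold), PARP14 (2.51-fold) and OAS3 (2.26-fold). IFI44, a cytoplasmic protein of the response, stood at 1.52 FPKM in OIS, 0.405 in H3.3cs1 late and 3.20 in H3.3cs1 early, against 1.67 in growing. OAS3 makes the 2-5A signal that activates RNase L, and it differed from the rest. It stood at 0.178 FPKM in OIS, 0.1005 in H3.3cs1 late and 1.49 in H3.3cs1 early, against 1.53 in growing, so that OIS and H3.3cs1 late lay low and the other libraries lay together.

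TRIM22, a ubiquitin ligase with antiviral activity that is also a p53 target, was the member that rose over this interval. It stood at 9.21 FPKM in OIS, 34.7 in H3.3cs1 late and 12.8 in H3.3cs1 early, against 17.1 in growing. It rose 2.59-fold in H3.3cs1 late against H3.3cs1 early. Late against growing (1.97-fold) lay just under the threshold, which it passed after the median difference of all genes was centred at 0.

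Compared with growing, H3.3cs1 late had 1 of 48 loci (2.08%) higher and 1 lower, beside 3.51% higher and 5.47% lower among all compared genes, and 1.89% higher and 2.94% lower over all named genes without a filter. The higher locus was IFI27 and the lower was OAS3 (2.30-fold). The median difference was 0.00 over the 48 loci and -0.19 over the 35 that reached 1 FPKM. After TRIM22 (0.98), the differences nearest the threshold without passing it were those of IFI44 (-0.93) and USP18 (-0.85). LGALS3BP, a secreted glycoprotein, stood at 104 FPKM in OIS, 121 in H3.3cs1 late and 82.5 in H3.3cs1 early, against 74.4 in growing.

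**Figure D2:**
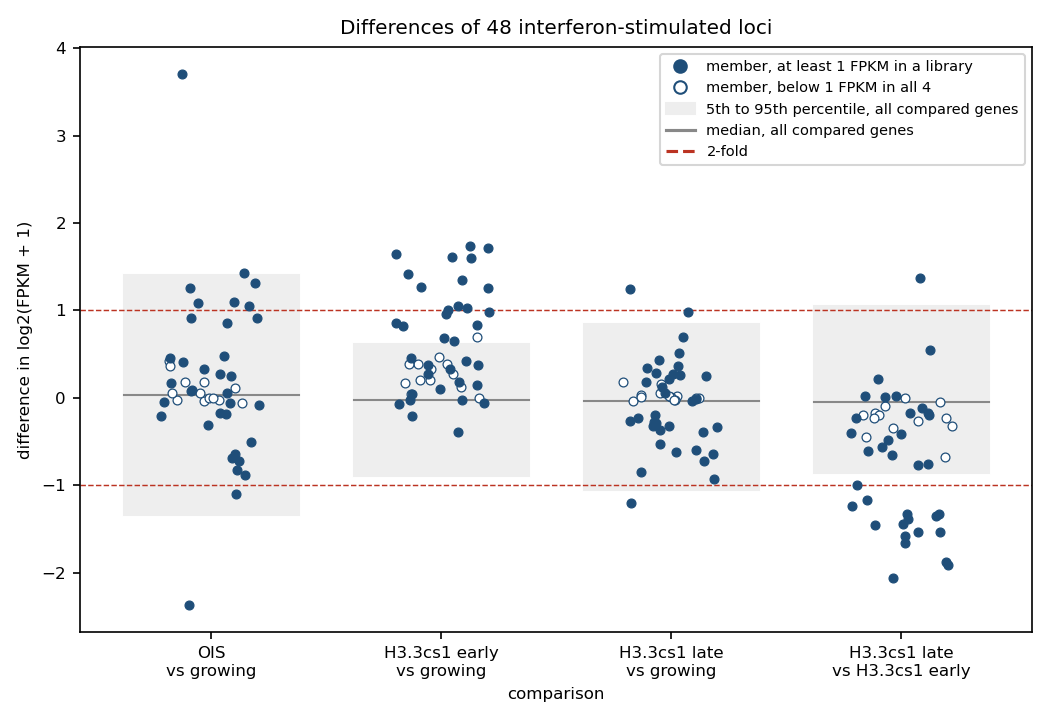
Difference in log2(FPKM + 1) of the 48 interferon-stimulated loci (points, filled where the locus reached 1 FPKM in a library) in 4 comparisons, over the 5th to 95th percentile and median of all compared genes. In H3.3cs1 early against growing 12 points lie at or above the upper 2-fold line, and in H3.3cs1 late against H3.3cs1 early 15 lie at or below the lower one.

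In RAS-induced senescence a different mixture was seen, with 7 of 48 loci at least 2-fold higher than in growing and 2 lower. Among all compared genes 9.13% were higher by this rule and 8.17% lower. Without a filter, 14.6% of the 48 loci were higher and 4.17% lower, beside 4.90% and 4.39% of all named genes. ISG20 and OASL reached 1 FPKM through OIS alone and so could not be lower there. The median difference was 0.07 over the 48 loci and 0.09 over the 35 that reached 1 FPKM, against 0.03 over all compared genes. With equal totals 4 of the 36 loci that then reached 1 FPKM were higher and 3 lower. Among all compared genes 6.61% were then higher and 10.9% lower, with a median of -0.16. IRF1, OASL and UBE2L6 no longer passed 2-fold, and TRIM22 did as a fall. Both comparisons with growing share that library, so their values are given side by side and not correlated.

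ISG20, a 3′ to 5′ exonuclease that degrades RNA, rose most, 13.1-fold. It stood at 17.1 FPKM in OIS, 0.113 in H3.3cs1 late and 0.486 in H3.3cs1 early, against 0.387 in growing. SP100, a component of PML nuclear bodies, stood at 75.7 FPKM in OIS, 33.5 in H3.3cs1 late and 33.4 in H3.3cs1 early, against 27.6 in growing, a rise of 2.68-fold in OIS. IRF1, a factor that acts downstream of interferon gamma and of NF-kappaB, stood at 10.6 FPKM in OIS, 3.39 in H3.3cs1 late and 3.75 in H3.3cs1 early, against 4.48 in growing, a rise of 2.13-fold in OIS. OASL, an OAS-like protein without the synthase activity, stood at 1.20 FPKM in OIS, 0.0697 in H3.3cs1 late and 0.0572 in H3.3cs1 early, against 0.0287 in growing, a rise of 2.13-fold in OIS. In each of these 4 genes OIS stood apart and the other libraries lay together. None of the 4 was 2-fold higher at day 3 of cleaved H3.3.

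The remaining rises in OIS were ISG15 (2.48-fold), UBE2L6 (2.06-fold) and IFI27, which were also higher in H3.3cs1 early than in growing. UBE2L6 was under 2-fold after quantile normalization as well. The ISG15 system summed to 98.6 FPKM in OIS, 49.9 in H3.3cs1 late and 99.6 in H3.3cs1 early, against 42.8 in growing, almost all of it ISG15 and UBE2L6. The IFIT family had a sum of 5.29 FPKM in OIS, 6.50 in H3.3cs1 late and 21.3 in H3.3cs1 early, against 9.15 in growing. No IFIT gene passed 2-fold against growing in OIS.

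GBP1, a guanylate-binding GTPase strongly induced by interferon gamma, fell 5.18-fold in OIS, at 1.27 FPKM in OIS, 8.64 in H3.3cs1 late and 10.3 in H3.3cs1 early, against 10.8 in growing. OAS3 was the other fall (2.15-fold). In OIS, 3 of 10 endothelial markers were also higher than in growing, CLDN5 at 11.6 FPKM, ROBO4 at 4.47 and TIE1 at 4.05, against 0.178, 1.19 and 0.631 FPKM in growing. The summed level of the 10 was 21.0 FPKM in OIS, 0.768 in H3.3cs1 late and 1.49 in H3.3cs1 early, against 2.27 in growing, and of the defining markers PECAM1 stood at 0.115 FPKM in OIS, with KDR and CDH5 at 0 in that library. The 12 leukocyte markers summed to 3.43 FPKM in OIS, 0.433 in H3.3cs1 late and 0.646 in H3.3cs1 early, against 0.561 in growing. The part of these markers in the OIS values was not tested.

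The membrane proteins of the IFITM family, which hinder virus entry, passed 2-fold in no comparison, and IFITM3 held the highest level of all members in each library. IFITM3 stood at 214 FPKM in OIS, 392 in H3.3cs1 late and 338 in H3.3cs1 early, against 346 in growing. The joined IFITM1 and IFITM2 locus stood at 119 FPKM in OIS, 74.3 in H3.3cs1 late and 117.5 in H3.3cs1 early, against 123 in growing. IFITM genes are related copies, and the split of fragments between these loci is uncertain.

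Promoter motifs were then set beside these patterns, as a description. Of the 12 loci higher at day 3, IFIT2 had no window, and 9 of the other 11 held the motif (81.8%), the windows of IFI35 and UBE2L6 being without it. Among the members not higher at day 3, 17 of 28 held it (60.7%). The 9 count PARP9 and DTX3L separately, although they share 1 motif. The 28 include loci below 1 FPKM in every library, such as BST2 and RTP4, which could not pass 2-fold. The shares are therefore not of comparable sets. Of the members that rose in OIS 6 had a window and 3 held the motif, namely ISG15, IFI27 and ISG20, while the windows of IRF1, SP100 and UBE2L6 held no such run of letters. GBP1 and OAS3, which fell in OIS, also held it, in the stretches printed above.

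The genes that make, sense and transmit interferon signals were followed in a list of 45 further symbols. Of these 41 were found, 29 reached 1 FPKM, and 0 rose and 0 fell in H3.3cs1 early against growing. Few genes of any kind passed 2-fold in that comparison. Among all compared genes 1.40% were higher and 3.96% lower, and over all named genes without a filter 0.754% and 2.13%. The receptor subunit IFNAR1 stood at 17.5 FPKM in OIS, 16.4 in H3.3cs1 late and 15.6 in H3.3cs1 early, against 15.5 in growing. JAK1 stood at 50.7 FPKM in OIS, 32.9 in H3.3cs1 late and 38.9 in H3.3cs1 early, against 40.1 in growing, and TYK2 at 25.8, 23.1 and 17.9 FPKM in the same libraries, against 21.9 in growing.

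In OIS 4 of the 41 genes found rose and 0 fell, and 29 of the 41 reached 1 FPKM. Over all named genes without a filter 4.90% were higher and 4.39% lower. Among all compared genes 9.13% were higher and 8.17% lower. SOCS3, an inhibitor of cytokine receptor signalling, rose 5.38-fold, at 70.9 FPKM in OIS, 9.84 in H3.3cs1 late and 14.2 in H3.3cs1 early, against 12.4 in growing. Receptor subunits made up 2 of the others. IFNAR2 rose 2.31-fold, at 11.7 FPKM in OIS, 4.08 in H3.3cs1 late and 4.56 in H3.3cs1 early, against 4.51 in growing. IFNGR2, of the interferon gamma receptor, rose 2.42-fold, at 66.5 FPKM in OIS, 29.5 in H3.3cs1 late and 20.0 in H3.3cs1 early, against 26.9 in growing. The joined IFNE and MIR31HG locus rose 2.17-fold to 33.2 FPKM in OIS against 14.8 in growing, and stood at 4.40 FPKM in H3.3cs1 late and 8.96 in H3.3cs1 early. It holds a long non-coding RNA and cannot be read as IFNE, an epithelial interferon. The other listed interferon genes that were found (IFNA1, IFNA2, IFNG, IFNK and IFNW1) stayed below 1 FPKM in every library.

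In H3.3cs1 late 2 of the 41 genes found were lower than in growing, MB21D1 (2.41-fold) and the IFNE and MIR31HG locus (2.92-fold), and 0 were higher. Over all named genes without a filter 2.94% were lower and 1.89% higher. Among all compared genes 5.47% were lower and 3.51% higher. MB21D1, the DNA sensor cGAS, stood at 1.54 FPKM in OIS, 0.723 in H3.3cs1 late and 1.71 in H3.3cs1 early, against 3.16 in growing, so that growing held the highest level. Its partner TMEM173 stood at 39.8 FPKM in OIS, 16.0 in H3.3cs1 late and 11.4 in H3.3cs1 early, against 21.3 in growing. IRF3, the factor they activate, stood at 43.1 FPKM in OIS, 21.8 in H3.3cs1 late and 25.3 in H3.3cs1 early, against 29.99 in growing. Both were highest in OIS, and neither passed 2-fold. IFI16, a DNA-binding protein of the interferon-inducible HIN family, was 2.44-fold lower at day 13 than at day 3, at 11.7 FPKM in H3.3cs1 late and 29.9 in H3.3cs1 early, with 17.3 in OIS and 20.7 in growing.

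**Figure D3:**
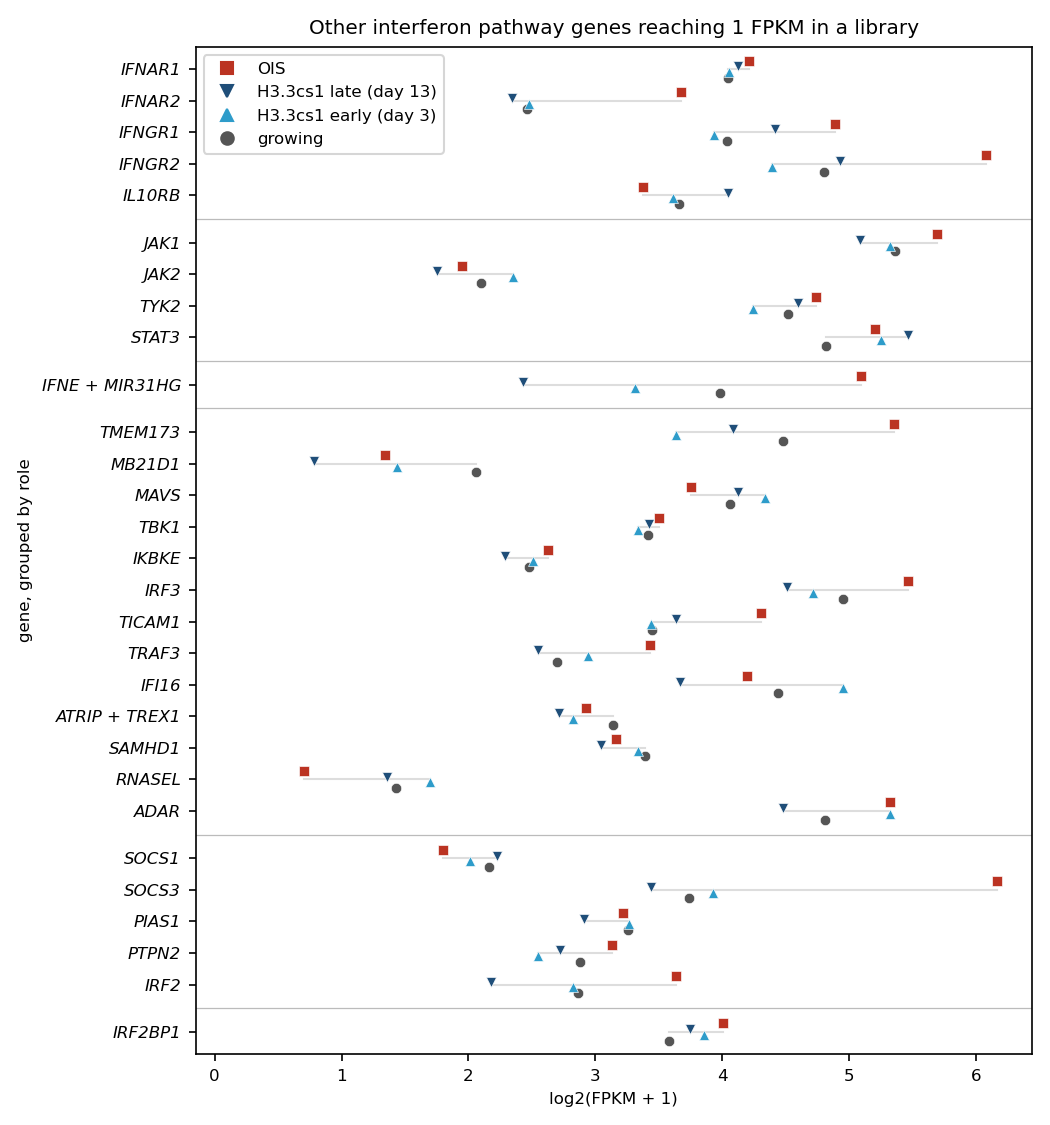
Level of 29 other interferon pathway genes that reached 1 FPKM in a library, as log2(FPKM + 1) on the horizontal axis, with 1 point per library and the genes grouped by role (receptors, receptor kinases and STAT3, the joined IFNE locus, sensing, negative regulators, IRF2BP1). The OIS points of SOCS3, IFNAR2 and IFNGR2 lie to the right of the other libraries, and the points of most other genes lie within 2-fold of growing.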

How the data were processed

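RNA was poly(A)-selected and made into libraries with the TruSeq RNA v2 kit, per the labels' protocols. The authors deposited 1 FPKM value per locus and library; per the submitters' processing notes the tools were Cufflinks 2.1.1, TopHat2 2.0.3 and Bowtie2 and the build hg19, with no role or order. The sources used here do not give any scaling between libraries or how fragments with several map positions were treated. File headers are shifted by 1 library, and each file was taken as the sample it was recorded for.

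Of 26468 loci, 2310 without a gene name were left out, and lines of the same name were summed. The loci left out held 47.4% of the summed FPKM in OIS, 48% in H3.3cs1 late, 57.9% in H3.3cs1 early and 49% in growing. Genes at 1 FPKM or more in at least 1 library (12183) were compared as log2(FPKM + 1), and a difference of 2-fold was called. No test was possible with 1 library per group. Members of at least 1 FPKM and past 2-fold in a comparison are named with all values. The rule was checked on simulated data with an assumed noise. Recovery was scored only for changes well above 2-fold at higher levels. Recovery of differences near 2-fold or from low values was not checked. Alternatives were another pseudocount, other filters, 3 scalings, the highest line of a name in place of the sum, and leaving out zeros or joined loci. Members, lists and alternatives were chosen with earlier results of these data known. Python 3.11.15, pandas 2.3.3, numpy 2.4.6 and matplotlib 3.10.9 were used. The planned comparison of protein sequences was not made, and 1 planned pathway gene is not reported here.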

Additional observations from a re-analysis of the deposited data

How the results depend on the processing

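The 12 rises at day 3 and the 15 members lower at day 13 than at day 3 stayed within 1.5 times those counts under 8 of the 9 alternatives, and none of the members named with a call turned its direction under any of the 9. Some alternatives could not change these counts. No member has more than 1 line, loci below 1 FPKM cannot pass 2-fold, and no joined locus was called except under equal totals. Leaving out genes listed at 0 could remove only IFI27. A filter at 5 FPKM in at least 1 library left 22 members. It gave 7 rises at day 3 and 9 members lower at day 13 than at day 3, beside 1.28% and 3.72% of all genes compared. It gave 1 fall in OIS (8.59% of all), and 0 rises and 0 falls in H3.3cs1 late against growing (3.52% and 5.97%). A pseudocount of 0.1 gave 4 falls in OIS, with IFIT1 and PARP9 added, beside 12.5% of all compared genes. In H3.3cs1 late against growing it gave 2 rises and 4 falls, beside 6.1% and 7.95%. Equal totals gave 4 rises in OIS in place of 7, beside 6.61% of all compared genes. In H3.3cs1 late against growing, centring gave 2 rises (3.86% of all compared genes), and leaving out genes listed at 0 gave 0 (3.41%). No paired analysis was possible because each group has 1 library, and for the same reason no library could be left out. Members below about 1 FPKM are limited by depth and by the pseudocount, and their order between libraries has no replicate check.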
